A study of Mus musculus with 4 samples.

Results

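The genes of polyamine synthesis and turnover were followed in mouse colon epithelial cells given medium conditioned by a probiotic bacterium. Members were all probe sets of the deposited table whose only gene symbol was Odc1, Amd1, Srm, Sms, Sat1, Oaz1, Oaz2, Azin1 or Smox. This gave 11 of the 22690 probe sets in the table. They covered 7 of the 9 genes, of 12394 genes that the table names singly. Amd1 was named for no probe set in the annotation used here. Sms was named only together with its pseudogene Sms-ps, on 3 probe sets, and a further probe set was shared by Oaz1 and its pseudogene Oaz1-ps. These 4 shared probe sets were not counted as members, and their signal cannot be assigned to either gene.

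The cells were YAMC cells, a conditionally immortalised line of young adult mouse colon epithelium. They were either untreated or kept for 16 h in medium conditioned by Lactobacillus GG (LGG), and total RNA of each group was profiled on 2 mouse 430A arrays, 4 in all. By their titles, the arrays of each group carry 2 dates, the earlier named date 1 and the later date 2 below, with 1 array of either group on each. What the dates mark is not given. No label speaks of separate cultures, so a p-value measures only the spread between these arrays, which may be technical. Cells given unconditioned medium were not analysed here.

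Polyamines (putrescine, spermidine and spermine) are small organic cations that bind nucleic acids and are needed for cell growth, and the renewing intestinal epithelium is known for its dependence on them. Ornithine decarboxylase, encoded by Odc1, makes putrescine from ornithine. Spermidine synthase (Srm) and spermine synthase (Sms) then add aminopropyl groups supplied by S-adenosylmethionine decarboxylase (Amd1). Spermidine/spermine acetyltransferase (Sat1) tags polyamines for export or oxidation, and spermine oxidase (Smox) turns spermine back into spermidine. Antizymes (Oaz1, Oaz2) bind ornithine decarboxylase, send it to the proteasome and slow polyamine uptake, and the antizyme inhibitor (Azin1), an inactive relative of the decarboxylase, ties up antizyme. Antizyme is made by a polyamine-driven ribosomal frameshift, and the decarboxylase and the acetyltransferase are largely controlled through their translation and stability, so mRNA levels show only part of the control.

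The sequences upstream of Odc1 and Sat1 are given because these genes encode the enzymes at the entry to and the exit from the polyamine pool. They came from the RefSeq promoter table of build GRCm38.p6, which held 7 of the 9 genes (not Srm and Azin1). Each stretch ends at the base before the first annotated transcript start of the gene. Capitals mark matches on either strand to the GC box GGGCGG, the core site of Sp1 family factors. The Odc1 stretch was chr12:17544623-17544807, plus strand, 185 bases with 77.8% G and C, and the Sat1 stretch was chrX:155216450-155216699, minus strand, 250 bases with 59.6% G and C.
Odc1 upstream: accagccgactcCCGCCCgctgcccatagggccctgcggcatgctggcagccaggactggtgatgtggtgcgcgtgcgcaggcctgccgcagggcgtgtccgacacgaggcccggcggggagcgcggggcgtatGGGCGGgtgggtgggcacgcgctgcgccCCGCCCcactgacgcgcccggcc
Sat1 upstream: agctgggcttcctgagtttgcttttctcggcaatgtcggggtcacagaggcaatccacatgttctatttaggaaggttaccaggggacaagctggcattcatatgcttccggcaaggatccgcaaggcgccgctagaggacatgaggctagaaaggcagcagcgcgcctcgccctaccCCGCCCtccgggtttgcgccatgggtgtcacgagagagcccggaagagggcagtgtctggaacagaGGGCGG
The GC box occurred 3 times in the Odc1 stretch and 2 times in the Sat1 stretch. Of 32851 promoters in the table, 21.8% held it over the first 185 bases of the window and 32.7% over its first 250 bases. Bases were counted from the end farther from the start. Unlike the stretches above, these windows were not cut at earlier transcript starts. The E-box CACGTG, the core site of Myc and Max, was found in neither stretch, against 3.88% of promoters over 185 bases and 6.02% over 250 bases. Bases past the transcript start, introns included, were not searched, so a site inside either gene would be missed. Matching letters are a description of these windows and not a measured site.

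Of the 11 member probe sets, 9 were measured on all 4 arrays, and these 9 passed the filter on dim probe sets. They covered 6 genes. The other 2, for Odc1 and Oaz1, had no value on either array of date 1. Of the 9, 0 were higher and 0 lower in LGG medium at an adjusted p under 0.05 (limma on log2 values with date as a block, adjusted over all 10333 probe sets tested). Over all probe sets tested 6.55% passed, 2.69% higher and 3.86% lower. Without date as a block 0 of the 9 passed too, against 0.939% of all probe sets. At an unadjusted p under 0.05 only Sat1 passed, 1 of 9 members against 20.5% of all probe sets. The median log2 change of the 9 was 0.02, and that of all probe sets was 0.01. The 95% intervals of 8 of the 9 included no change and reached at most a 1.55-fold rise and a 1.65-fold fall. A p that misses the threshold does not show that these genes were unchanged. All log2 changes and log2 ratios are of intensity plus a pseudocount of 25.2, while plain ratios are of the intensities themselves.

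The arrays were scaled alike, with trimmed mean intensities (2% cut from each end) from 500.1 to 513.5. Of 9 colon epithelial markers, the keratin genes Krt8, Krt18 and Krt19 were bright, while Epcam, Cdh1, Vil1 and Cdx2 were at most 41.8 on every array. These arrays thus gave little signal for the defining epithelial genes. The 9 summed to 2330.6 and 3238.3 untreated and 3370 and 2854.8 in LGG medium, at dates 1 and 2. The keratins differed in sign, and none passed: log2 changes were 0.23 for Krt8, 0.66 for Krt18 and -0.72 for Krt19 (limma, adjusted p = 0.645, 0.138 and 0.0693). The mesenchymal markers (6 of 7 had values) summed to 31784 and 26811 untreated at dates 1 and 2 and 23662 and 22184 in LGG medium. Dcn among them fell (limma, adjusted p = 0.0014). Col1a2, Vim and Thy1 were lower at both dates and did not pass or were too dim to test. Col1a1 was lower at date 1 and higher at date 2 (log2 ratios -0.15 and 0.07). Pdgfrb, too dim to test, was higher at both dates, at 62.3 and 48.2 untreated and 65.6 and 80.1 in LGG medium. The immune markers summed to 400.4 and 356 untreated and 559.1 and 419.5 in LGG medium, with Ptprc at most 37.2, and the macrophage gene Cd68 rose (log2 change 1.06; limma, adjusted p = 0.0314). Lyz2, also a macrophage gene, was too dim to test and was lower at both dates, at 116.7 and 146.9 untreated and 98 and 14.7 in LGG medium. The endothelial markers summed to 248.9 and 212.9 untreated and 450.2 and 400.8 in LGG medium, where Kdr rose (1.29; limma, adjusted p = 0.00924), while Pecam1 was lower at both dates and Cdh5 at date 1, both too dim to test. Pecam1 went from 48 and 34.1 to 12.1 and 21.3, and Cdh5 from 64.7 and 49.9 to 41.6 and 50.3. RNA integrity was read from the 3' over 5' signal of the Gapdh and beta-actin control sets. For Gapdh it was 0.805 and 0.784 without treatment at dates 1 and 2 and 0.931 and 0.768 with it. For beta-actin it was 1.11 and 1.08 without treatment and 1.2 and 1.05 with it. Both were highest on the LGG array of date 1. The part of these measures in the results was not tested, and in bulk RNA fewer cells of a type and less RNA per cell cannot be told apart.

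Ornithine decarboxylase mRNA was level at date 1 and lower in LGG medium at date 2 on every Odc1 probe set with values. The brightest set, 1438761_a_at, measured 3015.1 untreated and 3097.8 in LGG medium at date 1, and 2654.5 and 2022.4 at date 2. The LGG array of date 2 was the lowest and the LGG array of date 1 the highest, so the groups overlapped. The log2 change was -0.17 ± 0.18 (SE, n = 2 arrays per group; limma, adjusted p = 0.639). Each pair of values gives date 1 and then date 2. Set 1427364_a_at gave 459.4 and 415.1 untreated and 460.3 and 344 in LGG medium, a log2 change of -0.13 ± 0.24 (limma, adjusted p = 0.823). Here too the LGG array of date 2 was the lowest of the 4. Set 1437711_x_at, with values only at date 2, measured 1425 untreated and 954.7 in LGG medium. The ratio of LGG to untreated intensity at date 2 was therefore 0.762, 0.829 and 0.67 on the 3 probe sets, which share 1 pair of arrays and are not replicates, and at date 1 it was 1.03 and 1.00 on the first and second.

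**Figure D1:**
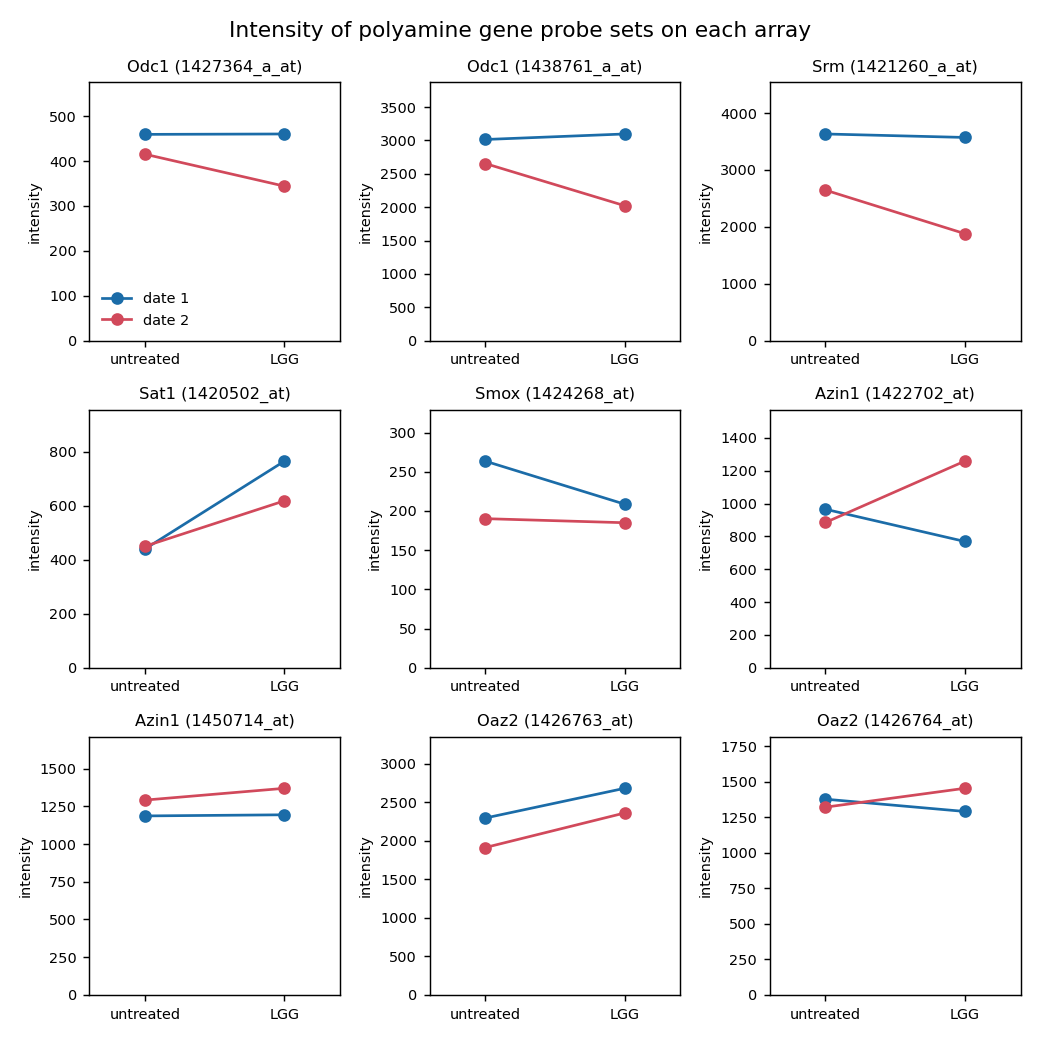
Linear intensity (vertical axes, from 0) of the 9 tested probe sets on each array, untreated and LGG, with the arrays of 1 date joined by a line. Sat1 was higher in LGG medium at both dates, while Odc1 and Srm were level at date 1 and lower at date 2.

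Spermidine synthase, the next enzyme of the route, was likewise lowest on the LGG array of date 2. Srm measured 3631.9 and 2644.5 untreated and 3570.9 and 1879.3 in LGG medium. Both arrays of date 2 were below both arrays of date 1, whatever the treatment. The ratio of LGG to untreated was 0.983 at date 1 and 0.711 at date 2, and the log2 change was -0.26 ± 0.17 (limma, adjusted p = 0.453). At date 2, 13.8% of all probe sets tested had a log2 ratio at least as low as that of Srm and 17.9% one as low as that of the brightest Odc1 set. Without LGG replicate 2, the LGG array of date 2, the log2 changes of Srm and the 2 Odc1 sets were 0.20, 0.13 and 0.07. That fit had no block for date and set the LGG array of date 1 against the untreated arrays of both dates. Its values therefore include the difference between the dates. Within date 1 the log2 ratios were -0.024, 0.039 and 0.0027, in the same order. Whether the response differed between the dates cannot be tested with 1 array per group and date.

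Spermine synthase could be followed only with its pseudogene. The shared set 1421052_a_at measured 180.2 and 162.9 untreated and 219.3 and 489.5 in LGG medium. Both LGG arrays were above both untreated arrays, most clearly at date 2, where the ratio was 3.00 against 1.22 at date 1. The log2 change was 0.85 ± 0.30 (limma, adjusted p = 0.118), with a 95% interval of 0.21 to 1.49. Leaving out LGG replicate 1 gave 1.39 (limma, adjusted p = 0.0249), and leaving out LGG replicate 2 gave 0.31 (limma, adjusted p = 0.63), so its size rested on the LGG array of date 2. The other 2 shared sets had values at date 2 only, 60.6 and 128 on set 1428699_at and 296.2 and 345.1 on set 1434190_at, untreated and LGG. All 3 were higher in LGG medium at date 2, with ratios from 1.17 to 3.00, but they share 1 pair of arrays and are not replicates.

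Among the genes of breakdown, the acetyltransferase gene Sat1 had the largest fitted change of the members. It measured 439.8 and 449.6 untreated and 764.4 and 617.6 in LGG medium. The untreated arrays were nearly equal, and both LGG arrays were above them. The ratio was 1.74 at date 1 and 1.37 at date 2, and the log2 change was 0.60 ± 0.23, a 1.52-fold difference that did not pass (limma, adjusted p = 0.15). Its 95% interval ran from 0.11 to 1.09. Of all probe sets tested, 14.4% had a fitted change at least as large in either direction. The group means were 445 ± 6.93 and 691 ± 104 (SD, n = 2 arrays per group). With 1 array left out at a time its log2 change lay between 0.45 and 0.75. Its sign could not turn there, because the groups did not overlap.

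The spermine oxidase gene Smox was lower in LGG medium at both dates and did not pass. It measured 263.6 and 190.2 untreated and 208.7 and 185 in LGG medium. The untreated array of date 1 stood above the others, which lay close together. The log2 change was -0.17 ± 0.26 (limma, adjusted p = 0.772), and its ratio was 0.792 at date 1 and 0.973 at date 2.

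**Figure D2:**
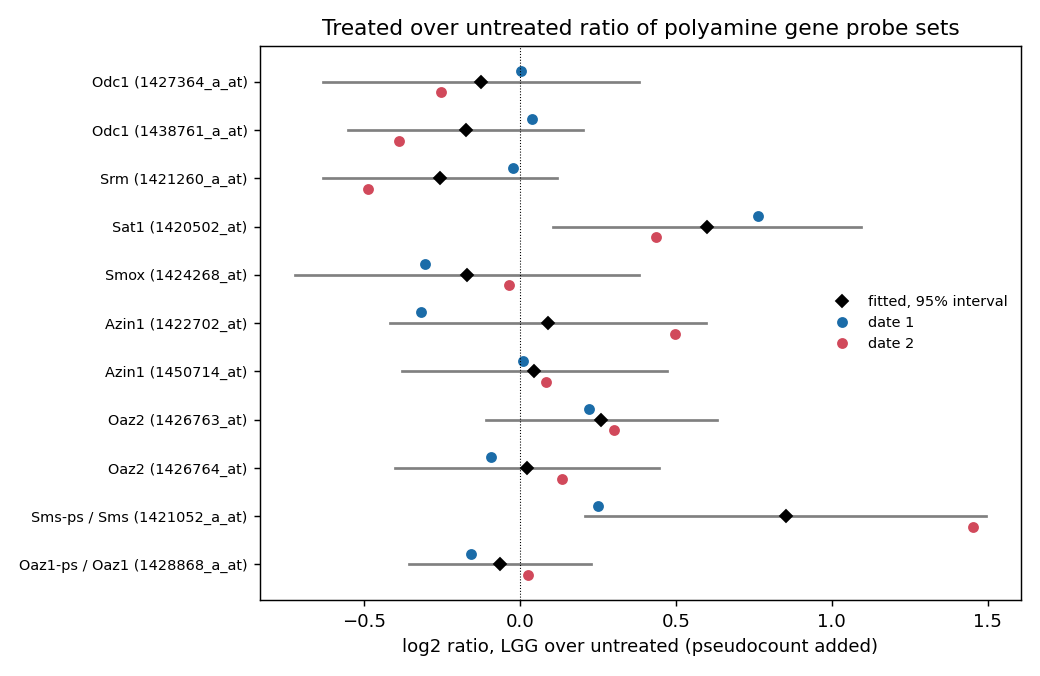
Log2 ratio of LGG to untreated (horizontal axis, after the pseudocount) at date 1 and date 2, with the fitted change and its 95% interval, for the 9 tested probe sets and the 2 tested sets shared with a pseudogene. The intervals of Sat1 and of the set shared by Sms and Sms-ps lie above 0, and the other 9 include it.

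In the antizyme system 0 of 4 tested member probe sets passed. Both Oaz2 sets and both Azin1 sets were higher in LGG medium at date 2, where the median log2 ratio of all probe sets tested was 0.055. At that date 28% and 42.6% of all probe sets were at least as high as Oaz2 1426763_at and 1426764_at. For Azin1 1422702_at and 1450714_at the shares were 15.6% and 47.5%. At date 1 the sets of either gene differed in sign, and no test compared the sets. Oaz2, an antizyme of broad expression, measured 2294.4 and 1911.6 untreated and 2680 and 2359.6 in LGG medium on set 1426763_at. The LGG arrays were the brightest at each date, with ratios of 1.17 and 1.23 and a log2 change of 0.26 ± 0.17 (limma, adjusted p = 0.435). The second set, 1426764_at, measured 1378.6 and 1322.4 untreated and 1292.1 and 1455.2 in LGG medium. Its log2 change was 0.02 ± 0.20 (limma, adjusted p = 0.969), with ratios of 0.937 and 1.10, so its sign differed from that of the first set at date 1.

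Oaz1, the most studied antizyme, had its own probe set only at date 2, where 1436292_a_at measured 6368.1 untreated and 5410.9 in LGG medium, a ratio of 0.85. The set shared with Oaz1-ps had values on all arrays, 6081.1 and 5561.2 untreated and 5455.6 and 5661 in LGG medium. Its groups overlapped, and its log2 change was -0.07 ± 0.14 (limma, adjusted p = 0.844).

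The antizyme inhibitor gene Azin1 had 2 probe sets with similar fitted changes and unlike ratios by date. Set 1422702_at measured 965.4 and 884.9 untreated and 769.1 and 1258.5 in LGG medium. Its LGG arrays were the lowest and the highest of the 4, with a ratio of 0.797 at date 1 and of 1.42 at date 2, and the log2 change was 0.09 ± 0.24 (limma, adjusted p = 0.883). Set 1450714_at measured 1187.1 and 1292.2 untreated and 1194.6 and 1370.3 in LGG medium. Its ratios were 1.01 and 1.06 and its log2 change was 0.05 ± 0.20 (limma, adjusted p = 0.932). Both sets were higher in LGG medium at date 2. At date 1 the first was lower and the second nearly level, with log2 ratios of -0.32 and 0.0089.

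By date, 5 of the 9 member probe sets kept their sign from date to date, as did 64.1% of all probe sets tested, and 4 had opposite signs: both Odc1 sets, Azin1 1422702_at and Oaz2 1426764_at. The groups did not overlap for 2 of the 9, Sat1 and Oaz2 1426763_at, against 47% of all probe sets. Between the dates themselves 0 of 9 members passed in the same limma fit, against 0.513% of all probe sets. The largest difference was that of Srm, lower at date 2 by a log2 change of -0.69 ± 0.17 (limma, adjusted p = 0.122), followed by the brightest Odc1 set at -0.40 ± 0.18 (limma, adjusted p = 0.411).

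Genes that feed, use, move or regulate polyamines were taken from a list of 45 genes, each represented by its brightest probe set with values on all arrays. Of the 22 that could be tested, 1 rose, 2 fell and 19 did not pass. Thus 13.6% were called against 6.5% of all 6952 genes tested (3.01% higher and 3.5% lower). The list was drawn up with earlier results of these data known, so its share is not independent of them. The median log2 change of the 22 was -0.05. Slc3a2, the heavy chain of amino acid exchangers that has been tied to putrescine export in human colon cancer cells, measured 3011.2 and 2898.9 untreated and 4787.6 and 5511.1 in LGG medium. It rose by a log2 change of 0.79 ± 0.15 (limma, adjusted p = 0.00852). Slc12a8, a cation-chloride cotransporter family gene, measured 185.9 and 223 untreated and 57.6 and 90.7 in LGG medium. Its log2 change was -1.22 ± 0.28 (limma, adjusted p = 0.018). Both LGG values were under the filter on dim probe sets, a mean of 101, so it was tested only through its untreated arrays. The size of its fall is therefore uncertain. Mycn, a Myc family transcription factor gene, measured 698.8 and 702.7 untreated and 326 and 156.6 in LGG medium and fell (-1.52 ± 0.27; limma, adjusted p = 0.00467). In each of the 3 genes both LGG arrays lay on the same side of both untreated arrays, as in 47% of all probe sets tested. The 3 were picked because they passed on these same values, so this adds no support. All 3 calls were lost in the limma fit with no block for date, at an adjusted p of 0.0713, 0.0951 and 0.0722. In that fit 0.939% of all probe sets passed, against 6.55% with the block. The 3 calls were also lost with no filter on dim probe sets or with either untreated array left out. Under those settings every call over all probe sets was lost, so this loss is not particular to the 3 genes. Without LGG replicate 1 Slc12a8 did not pass (adjusted p = 0.102), without LGG replicate 2 Slc3a2 did not (adjusted p = 0.101), and Slc3a2 did not without an intensity trend (adjusted p = 0.0856).

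The remaining classes of this list held no gene that passed. In the supply of arginine and ornithine, 0 of 3 tested genes were called. Asl, the argininosuccinate lyase gene, had a log2 change of -0.34 and Oat, which links ornithine to proline and glutamate, one of -0.30 (limma, adjusted p = 0.49 and 0.363). The arginase genes Arg1 and Arg2, which make ornithine, were too dim to test, at most 4.1 and 81 on any array. Agmat, named for agmatine breakdown, was the only other polyamine enzyme tested, at 0.08. In the hypusine pathway, which uses spermidine to modify the translation factor eIF5A, Dohh had a log2 change of 0.44 (limma, adjusted p = 0.3) and Eif5a 0.21 (limma, adjusted p = 0.356), and neither passed. Both were higher in LGG medium at each date, with log2 ratios of 0.40 and 0.48 for Dohh and 0.25 and 0.16 for Eif5a.

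In the methionine cycle and the salvage of methylthioadenosine, a by-product of spermidine and spermine synthesis, 0 of 7 tested genes were called. Enoph1 and Apip, which encode enzymes of the salvage route, had log2 changes of 0.78 and -0.62 (limma, adjusted p = 0.113 and 0.136), so steps of the same route had opposite signs. Mtap, the phosphorylase that opens the route, had a log2 change of -0.01 on its brightest set, while its 3 other tested sets were lower, at -0.78, -0.71 and -0.15. Of these the first passed (limma, adjusted p = 0.0399) and the others did not (limma, adjusted p = 0.0921 and 0.745), so the sets of Mtap disagreed. Cav1, the caveolin gene of the transport class, had a log2 change of -0.20. Of the Myc network, Max, the partner of Myc proteins, had a log2 change of -0.40 with a log2 ratio of 0.35 at date 1 and of -1.15 at date 2. Mnt, a repressor that also binds Max, had a log2 change of -0.33 and log2 ratios of -0.35 and -0.32. Myc itself measured 428.3 and 433.4 untreated and 618.4 and 423.2 in LGG medium (log2 change 0.24; limma, adjusted p = 0.644), and is named because Odc1 is a textbook target of Myc.

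**Figure D3:**
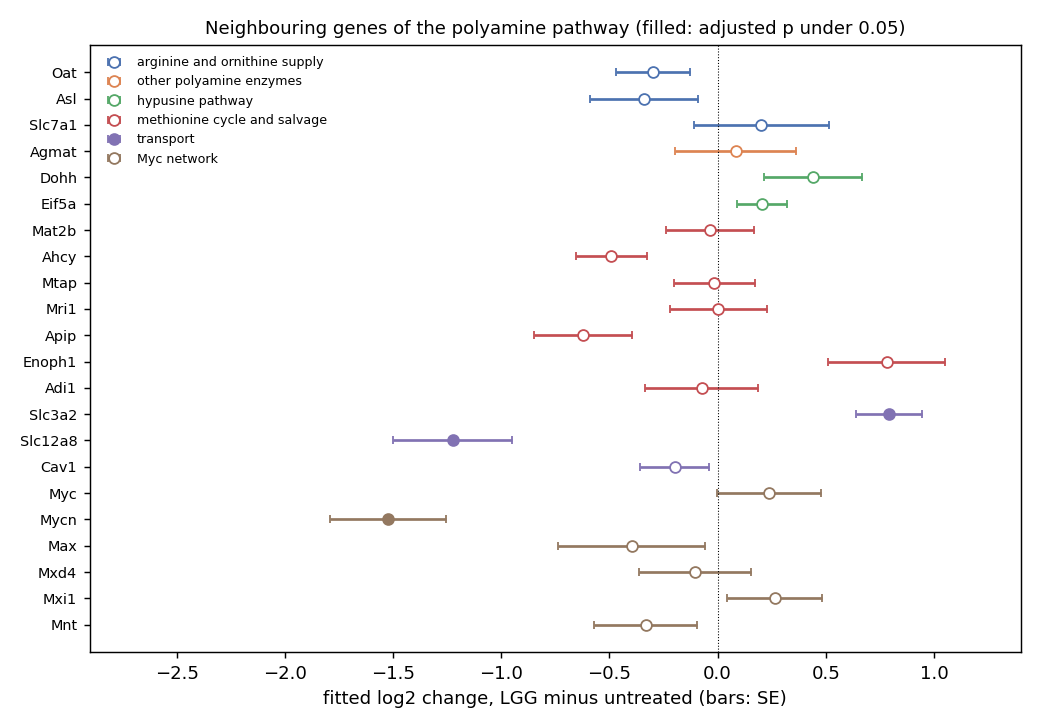
Fitted log2 change (horizontal axis, LGG minus untreated, bars are the SE) of the 22 tested genes around the polyamine pathway, coloured by class and filled where the adjusted p was under 0.05. Slc3a2 lies to the right at 0.79, and Slc12a8 and Mycn lie to the left at -1.22 and -1.52.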

How the data were processed

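The table deposited by the authors holds linear intensities, 1 column for each of the 4 arrays. Its software and scaling are not given in the sources used here. RNA was taken with Trizol and a Qiagen kit, per the labels. Values were used without further scaling. Control probe sets (64) and the 6307 of 22690 probe sets without a value at date 1 were set aside. Of the rest, 10333 reached a mean intensity of 101 (20% of the trimmed mean, 504.9) and were tested. A pseudocount of 25.2 (5% of it) was added before log2, so the folds of dim genes are understated. limma 3.58.1 under R 4.3.3 fitted group and date, with an eBayes intensity trend, two-sided tests and Benjamini-Hochberg adjustment. There were 1 residual and 12.5 prior degrees of freedom, so an SE rests mostly on variance shared across probe sets. The method was tested on simulated data with independent noise and with changes larger than any fitted change of a member. Recovery of changes as small as those of the members was not checked. An exact permutation test of these 4 arrays cannot go below p = 0.333.

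The titles pair the arrays by date, and the date differences of both groups correlated at 0.27 across probe sets. Members and lists were chosen with earlier results of these data known. Every member is described. Of the other list, genes that passed and up to 2 more per class by size of change are named, and Myc, the arginase genes and Mtap were chosen after their values were seen. Names came from the platform annotation. Of 20393 probe sets with 1 symbol, 20364 matched RefSeq by Entrez identifier, which changed 0 symbols. Alternatives were the block, pseudocount, filter, scaling, trend and leaving out each array. Figures were drawn with matplotlib 3.10.9.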

Additional observations from a re-analysis of the deposited data

Results flagged for a closer look

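A pair of probe sets shared by Sms and Sms-ps had values only on the arrays of date 2 and so took part in no test. In LGG medium they measured 128 on set 1428699_at and 345.1 on set 1434190_at, above the untreated array of the same date, at 60.6 and 296.2. There is 1 array per group, so the differences have no replicate check.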

How the results depend on the processing

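With 2 arrays per group and no detection calls, changes of dim genes cannot be bounded against background. The count of member probe sets that passed was 0 under the main settings and all 12 alternatives fitted by limma (0 to 2 of the 9 at an unadjusted p under 0.05). The count over all probe sets was 677, and it was 97 with no replicate block for date, 378 without an intensity trend, 0 when dim probe sets were kept (no filter; 2296 of 16319 at an unadjusted p under 0.05), and 0 to 638 with 1 array left out, of which 0 without untreated replicate 1 (729 unadjusted) and 0 without untreated replicate 2 (818 unadjusted). Of the list of neighbouring genes 3 passed, against 0 with no replicate block (6 unadjusted), 0 with no filter (6 unadjusted), 0 to 2 with 1 array left out and 4 where any probe set of a gene could pass. The cause of these shifts was not tested. With 1 array left out, some directions turned, with none passing. The log2 change then lay between -0.32 and 0.072 for Odc1 1427364_a_at, -0.48 and 0.13 for Odc1 1438761_a_at, -0.71 and 0.20 for Srm, -0.38 and 0.042 for Smox, -0.26 and 0.44 for Azin1 1422702_at, -0.051 and 0.14 for Azin1 1450714_at, and -0.062 and 0.11 for Oaz2 1426764_at. The turned values came without LGG replicate 2, except that of Smox (without untreated replicate 1), a second of Azin1 1450714_at (-0.01, without untreated replicate 1) and a second of Oaz2 1426764_at (-0.0076, without untreated replicate 2). Fits with 3 arrays had no block and assume that a lone array varies like the other group. Without the block, differences between the dates enter their log2 changes, the turned ones included. Smox and Slc12a8 could not be fitted with the filter at 50% of the trimmed mean, where they were not kept.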
